A study of Mus musculus with 2 samples.

Results

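The cells described here were bone marrow-derived macrophages with few transcripts of 4 cycling genes that carried the most transcripts of Pgf, Nptx1, Dmkn, Col4a1, Col4a2 and Cxcl14, in cultures being turned into osteoclasts. They were selected on measured values. A barcode was eligible when it had at least 500 genes, at most 10% mitochondrial UMIs (unique molecular identifiers, each standing for 1 captured transcript), at least 5000 UMIs, fewer than 3 UMIs over the osteoclast genes Ctsk, Mmp9 and Dcstamp, and at most 2 UMIs over the cycling genes Mki67, Top2a, Aurka and Cdk1. The score was the share of a cell's UMIs in the 6 genes, and the top 10% of the eligible cells of each library were selected. This gave 138 of 1389 eligible cells in the control library and 189 of 1895 in the mutant library, or 327 of 12320 barcodes in all. Both libraries were single-cell 3′ RNA libraries of bone marrow-derived monocytes (BMDMs) grown in M-CSF at 50 ng/ml and RANKL at 100 ng/ml, collected 24 h after RANKL was added. One came from a control, whose genotype is labelled only as control. The mutant was labelled LysM-Cre;Arid1afl/fl and lacks the chromatin remodelling subunit Arid1a in cells with an active lysozyme M promoter, which drives the Cre; loxP sites flank Arid1a exons 5 and 6. The methods give femoral marrow of mice 4 to 6 weeks old as the source of such cultures, and the number of mice behind each library was not given in the sources used here. With 1 library per genotype no test between genotypes was possible, and every interval below is a 95% interval for counting error alone.

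Placental growth factor, the product of Pgf, belongs to the VEGF family and binds VEGFR1 and the neuropilins. It is best known for vessel growth and for drawing in myeloid cells, and osteoclast precursors carry a receptor for it. Col4a1 and Col4a2 encode the chains of the most widespread form of type IV collagen, the network-forming collagen of basement membranes. Nptx1 encodes a secreted neuronal pentraxin, Dmkn a secreted protein of the epidermis, and Cxcl14 a chemokine found in many epithelia and in some myeloid cells. Macrophages exposed to M-CSF and RANKL leave the macrophage state, switch on Nfatc1 and its targets, and fuse into bone-resorbing osteoclasts. The comparison addresses which other genes go with high transcript levels of these secreted products. It covers cells with few transcripts of 3 osteoclast genes, in a control and an Arid1a mutant library.

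In the mouse genome (GRCm39, GENCODE M39) the 6 genes lie on 5 chromosomes. Pgf is at chr12:85213409-85224564 and Nptx1 at chr11:119428472-119438585, both on the minus strand. Dmkn is at chr7:30463176-30480488 on the plus strand and Cxcl14 at chr13:56436352-56444603 on the minus strand. Col4a1 (chr8:11248423-11362826, minus strand) and Col4a2 (chr8:11362471-11499287, plus strand) are transcribed away from each other and overlap at their 5′ ends. The RefSeq promoter windows (GRCm38.p6, 250 bases before to 50 after the start) cover 5 of the 6 genes, and Nptx1 had no entry. The windows below are shown because the genes did not move as 1 group in the cells, and because the pair of collagen genes shares 1 control region. Capitals mark matches on either strand to the GC box (GGGCGG), the CCAAT box, the AP-1 site (TGANTCA) and the TATA box (TATAAA).
Pgf, chr12:85177264-85177563, minus strand: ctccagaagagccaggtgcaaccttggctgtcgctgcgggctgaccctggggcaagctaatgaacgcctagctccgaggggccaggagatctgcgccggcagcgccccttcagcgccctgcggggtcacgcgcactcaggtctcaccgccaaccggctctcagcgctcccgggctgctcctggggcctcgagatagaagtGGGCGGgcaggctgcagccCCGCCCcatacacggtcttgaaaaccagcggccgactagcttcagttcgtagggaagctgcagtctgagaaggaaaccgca
Dmkn, chr7:30763506-30763805, plus strand: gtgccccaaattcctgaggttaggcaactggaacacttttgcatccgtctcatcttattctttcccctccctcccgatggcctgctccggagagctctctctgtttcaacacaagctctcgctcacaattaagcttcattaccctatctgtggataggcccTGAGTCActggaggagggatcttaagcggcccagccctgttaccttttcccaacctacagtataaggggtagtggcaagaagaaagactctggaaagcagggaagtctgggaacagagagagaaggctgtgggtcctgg
Col4a2, chr8:11312555-11312854, plus strand: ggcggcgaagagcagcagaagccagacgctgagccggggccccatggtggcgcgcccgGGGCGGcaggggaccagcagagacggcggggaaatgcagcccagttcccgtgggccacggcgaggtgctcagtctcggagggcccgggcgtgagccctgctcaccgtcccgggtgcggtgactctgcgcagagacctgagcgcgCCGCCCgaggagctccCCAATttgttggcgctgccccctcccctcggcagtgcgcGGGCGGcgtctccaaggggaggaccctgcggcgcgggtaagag
Cxcl14, chr13:56296502-56296801, minus strand: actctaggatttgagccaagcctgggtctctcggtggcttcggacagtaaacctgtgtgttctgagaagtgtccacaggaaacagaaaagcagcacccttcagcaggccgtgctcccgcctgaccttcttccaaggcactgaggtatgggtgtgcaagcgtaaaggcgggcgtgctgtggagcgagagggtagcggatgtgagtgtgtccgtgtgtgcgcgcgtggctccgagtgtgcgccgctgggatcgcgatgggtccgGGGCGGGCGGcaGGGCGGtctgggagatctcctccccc
The Col4a2 window also holds the Col4a1 start, 21 bases downstream of the Col4a2 start and pointing the other way. It had 3 GC boxes and 1 CCAAT box. Pgf had 2 GC boxes and Cxcl14 had 3, while the first Dmkn window had none and carried 1 AP-1 site. Of all 32851 windows in the RefSeq set, 35.7% held a GC box, 37.4% a CCAAT box, 7.81% the AP-1 letters and 13.6% a TATA box, which none of the windows shown contained. No motif was common to all 4 windows.

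Collagen IV was nearly absent from the selected control cells, so that a name based on it would describe the mutant library only. The 138 selected control cells held 9 Col4a1 UMIs, in 5.07% of the cells, and 17 Col4a2 UMIs, in 7.97%. Among the 189 selected mutant cells, 36.0% had a Col4a1 UMI and 47.1% a Col4a2 UMI. Most of the control score came from Pgf, with 42.6% of the 1356 score UMIs, and Nptx1, with 28.7%. In the mutant cells the 4420 score UMIs were spread more evenly, with 23.0% from Pgf, 30.7% from Nptx1, 15.8% from Dmkn and 23.2% from Cxcl14. The cells are therefore called the high-score cells below.

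The values that chose the cells are given as descriptions. Levels are given as CPM, UMIs per 1000000 UMIs. The score reached from 281 to 1962 CPM in the high-score control cells (median 413) and from 819 to 3030 in the mutant ones (median 1109). Since each library had its own threshold, a mutant cell needed a higher score than a control cell. The control cell just inside the threshold had a score of 280.84 CPM, or 5 UMIs, and the cell just outside had 280.65, or 9 UMIs. The corresponding mutant cells stood at 819 with 18 UMIs and 817 with 22 UMIs. A high-score cell rested on 2 to 77 score UMIs (median 8) in the control and on 5 to 89 (median 21) in the mutant, against medians of 1 and 2 in the other eligible cells. No score UMI at all was seen in 43.5% of the eligible control cells and 28.5% of the eligible mutant cells.

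Pgf, the leading control gene, stood at 221 CPM in the high-score control cells and 11.1 in the other eligible control cells. In the mutant library it stood at 290 and 21.3. Nptx1 stood at 149 and 10.5 CPM in the control cells and at 388 and 33.2 in the mutant cells. Within the high-score cells, Pgf was thus highest in the control and Nptx1 in the mutant. Over all eligible cells Cxcl14 was highest in both libraries, at 31.1 CPM beside 30.5 for Pgf in the control. In the mutant it was at 102 beside 66.7 for Nptx1, so the order depended on the selection. Dmkn was at 53.5 and 6.71 CPM in the control library and at 199 and 21.0 in the mutant. Cxcl14 was at 85.3 and 25.6 in the control and at 293 and 81.6 in the mutant. Col4a1 reached 3.44 (1.57 to 6.53) CPM in high-score control cells and 40.2 (33.9 to 47.5) in mutant ones, and Col4a2 6.4998 (3.79 to 10.4) and 51.1 (43.9 to 59.1). These levels were fixed by the selection and no test was made on them. Cells with 3 or more osteoclast-gene UMIs, which the selection left out, lay between the high-score and the other eligible cells for Pgf, with 86.6 CPM in control and 144 in mutant cells. They lay between them for Nptx1 as well (50.1 and 143), but for Cxcl14 they were below both, at 9.85 and 58.4.

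**Figure D1:**
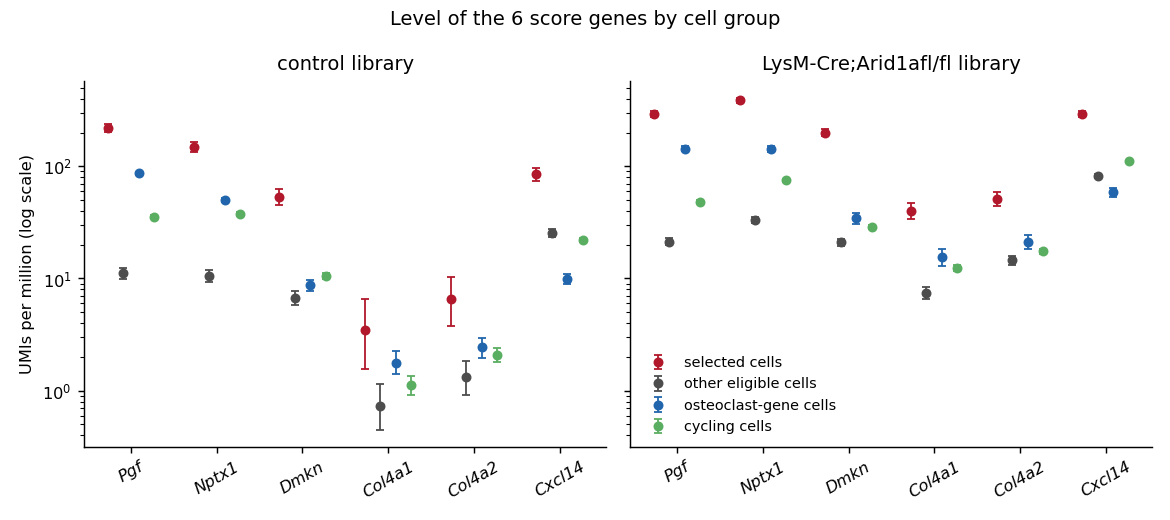
Level of each score gene, in CPM on a log axis, in the high-score (selected) cells, the other eligible cells, the osteoclast-gene cells and the cycling cells of each library; bars are exact Poisson 95% intervals. Col4a1 and Col4a2 stay under 7 CPM in the selected control cells, and Cxcl14 is lowest in the osteoclast-gene cells of both libraries.

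After every cell was thinned to 5000 UMIs, 46.4% of the high-score control cells still had a Pgf UMI, against 5.12% of the other eligible control cells. In the mutant library the shares were 45.0% and 7.15%. Unthinned, the Pgf shares were 60.9% and 12.9% in the control and 59.3% and 14.5% in the mutant. Neutrophil-like cells, defined by at least 5% of UMIs in S100a8, S100a9, Ngp and Camp, are not known to express these genes, and 2 of 83 of them (2.41%, at a median of 9433 UMIs) had a Pgf UMI in the mutant library. The control library had 17 neutrophil-like cells, of which 2 had a Pgf UMI, at a median of 7167 UMIs. By level, neutrophil-like mutant cells held 16.3 CPM of Pgf, on 15 UMIs, and 35.8 of Nptx1, on 33 UMIs, which is close to the 21.3 and 33.2 of the other eligible cells. The Pgf UMIs lay in 2 of these 83 cells and the Nptx1 UMIs in 5, so the neutrophil-like cells do not give an even background. Whether the low levels of Pgf and Nptx1 outside the high-score cells were expression was not tested. The high-score cells had medians of 17818 UMIs in the control and 17412 in the mutant, slightly below the 19585 and 18301 of the other eligible cells.

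To ask whether the 6 genes went together, each gene was measured in cells chosen by the other 5 genes, so that its own UMIs had no part in the choice. Pgf and Nptx1 were higher in such cells in both libraries, and Cxcl14 was lower in both. Pgf stood at 75.8 CPM in the 138 control cells chosen without it and 25.6 in the remaining cells, a log2 ratio of 1.56 (1.33 to 1.79). The mutant values were 111 and 39.97, a log2 ratio of 1.48 (1.31 to 1.64). Nptx1 had log2 ratios of 1.47 (1.19 to 1.73) in the control and 1.49 (1.36 to 1.63) in the mutant. Cxcl14 fell to 13.4 against 33.0 CPM in the control, a log2 ratio of -1.29 (-1.81 to -0.82), and to 75.6 against 104 in the mutant, a log2 ratio of -0.46 (-0.65 to -0.28). In cells chosen by the sum of the other 5 genes the chemokine was thus lower. Dmkn had a log2 ratio of 1.249 (1.05 to 1.44) in the mutant, whereas the control interval included 0 (0.41, -0.12 to 0.89). For Col4a1 and Col4a2 the mutant log2 ratios were 1.62 (1.27 to 1.956) and 1.37 (1.09 to 1.64). In the control, Col4a1 rested on 9 UMIs in the chosen cells (2.22, 0.90 to 3.44) and Col4a2 on 7 (0.61, -0.78 to 1.78).

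**Figure D2:**
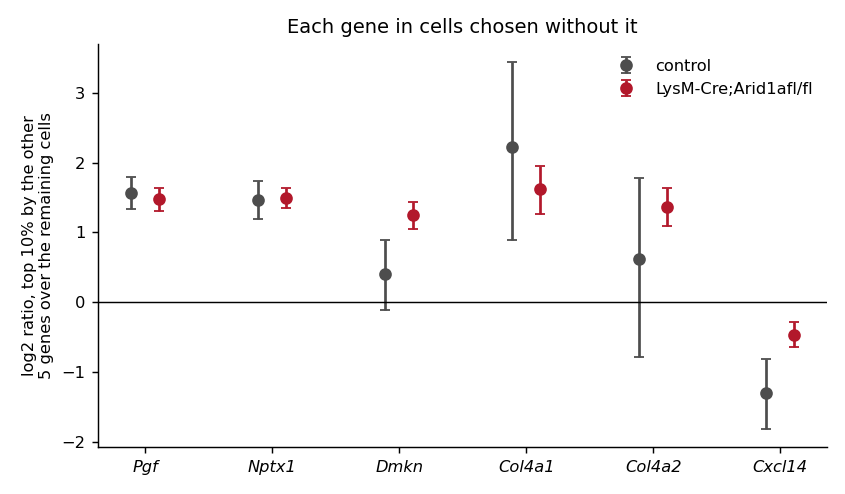
Log2 ratio of each gene between the top 10% of eligible cells by the other 5 genes and the remaining eligible cells, for both libraries; bars are exact conditional 95% intervals for counting error. Pgf and Nptx1 lie between 1.47 and 1.56 in both libraries, and Cxcl14 lies below 0 in both.

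Pairs of genes were then compared at equal depth. Among eligible cells thinned to 5000 UMIs, the 128 control cells with a Pgf UMI held 108 Nptx1 CPM, and the 1261 without held 15.4. The 207 mutant cells with a Pgf UMI held 255 Nptx1 CPM and the 1688 without held 45.9. Nptx1 was therefore higher beside Pgf by log2 ratios of 2.81 (2.34 to 3.27) and 2.48 (2.24 to 2.71). Cxcl14 went the other way, at 6.25 against 35.4 CPM in the control, on 4 UMIs in the cells with Pgf, and 56.0 against 108 in the mutant. With the other genes Cxcl14 did not go down in the mutant library. It was at 146 CPM in thinned cells with a Dmkn UMI and 97.7 in those without (0.57, 0.30 to 0.84), and its log2 ratios were 0.53 (0.16 to 0.87) beside Col4a1 and 0.59 (0.29 to 0.87) beside Col4a2. Beside Nptx1 the interval included 0 (-0.15, -0.43 to 0.12), whereas in the control Cxcl14 was lower beside Nptx1 (-1.98, -3.87 to -0.61). The opposite course of Cxcl14 was thus towards Pgf in both libraries, and towards Nptx1 in the control. Pgf and Nptx1 UMIs were seen together in 2.16% of thinned control cells and 4.59% of thinned mutant cells.

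When UMIs of each cell were divided at random in equal parts and the cells were chosen on one part only, the 6 genes together were higher in the other part by log2 ratios of 2.71 (2.55 to 2.87) in the control and 2.56 (2.48 to 2.64) in the mutant. The score thus repeated within cells. Cxcl14 repeated least in the control (0.85, 0.46 to 1.23), and Pgf repeated most, at 3.84 in the control and 3.49 in the mutant. Choosing after thinning to 5000 UMIs kept 92 of the 138 control and 145 of the 189 mutant high-score cells.

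High-score cells differed in how many of the 6 genes they carried. Of the 6 genes, 1 was seen in 52 of the 138 control cells and 2 in 57, whereas 5 or 6 genes were seen in 1 and 0 cells. Among the 189 mutant cells, 28 had 1 gene, 38 had 2, 51 had 3, 50 had 4, 17 had 5 and 5 had all 6. Grouped by the leading gene, Pgf or Nptx1 led in 92 control cells (66.7%) and 106 mutant cells (56.1%). Cxcl14 led in 26 (18.8%) and 52 (27.5%), Dmkn in 18 and 27, and the collagen genes in 2 and 4. A tie for the lead occurred in 2 cells of each library and went to the gene listed first.

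Outside the score, Jdp2, Fgfr1, Vegfc and Nrp2 were among the genes that were higher in the high-score cells, and Lyz2, Ccl4, Ccl2 and Prdx1 among those that were lower. Osteoclast-gene cells of both libraries differed from the other eligible cells in the same direction for each of these genes. In the control they had 1227 CPM of Nrp2, 51.5 of Fgfr1, 39.5 of Vegfc, 5945 of Lyz2, 2313 of Prdx1, 332 of Ccl2 and 27.2 of Ccl4. In the mutant the levels were 685, 49.2, 21.1, 3991, 4571, 689 and 145. These directions were thus not particular to the high-score cells. Of 4958 genes whose mean reached 20 CPM, 76 were over 1.5-fold higher in the high-score cells in both libraries, or 1.53% of the genes, and 163 were over 1.5-fold lower, or 3.29%. The medians of all genes were 0.07 on the log2 scale in both libraries. The balance of the counts moved with the scaling, from 31.8% higher on plain totals to 18.5% with TMM factors and 45.8% when the totals excluded mitochondrial genes and those of ribosomal proteins. Choosing the cells after thinning to 5000 UMIs gave 46 higher and 90 lower genes, so the counts depended on how the score was measured.

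Jdp2, an AP-1 family partner known to be needed for osteoclast formation, headed the genes that were higher. It stood at 221 CPM in high-score control cells and 59.5 in the others, and at 165 and 38.5 in the mutant, log2 ratios of 1.89 (1.75 to 2.03) and 2.10 (1.961 to 2.25). The osteoclast-gene cells had 342 in the control and 181 in the mutant, above the high-score cells in both libraries. Fgfr1, a fibroblast growth factor receptor, was at 53.9 against 17.7 in the control and 42.3 against 9.23 in the mutant. Serpinb6b, an intracellular serine protease inhibitor that overlaps Serpinb1c on the other strand and has close paralogs, was at 133 against 35.9 and 58.3 against 19.3. Each of these genes was higher in high-score cells of both libraries, and each was lower in the mutant than in the control high-score cells, with log2 ratios between genotypes of -0.42 for Jdp2, -0.35 for Fgfr1 and -1.19 for Serpinb6b. Wwc1, a Hippo pathway scaffold, rose from 18.3 to 54.3 in the control and from 5.95 to 21.7 in the mutant. Fgfr1 and Wwc1 passed the 20 CPM filter only through the high-score cells, where they were high. Sdc1, the heparan sulfate proteoglycan syndecan-1, was at 216 against 87.7 and 121 against 46.5.

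Cd207, the C-type lectin langerin, differed in size between the libraries. It was at 50.1 against 18.7 CPM in the control, a log2 ratio of 1.42, and at 20.6 against 2.83 in the mutant, a log2 ratio of 2.86. The genotype difference was therefore smaller in high-score cells (-1.28) than in the others (-2.72), a difference of 1.44 (0.92 to 1.963) on the log2 scale. Osteoclast-gene cells had 12.9 CPM of Cd207 in the control, below the other eligible cells, and 13.5 in the mutant. The remaining named genes were Pde4d, which breaks down cyclic AMP (1.2502 in the control and 1.51 in the mutant), Rgcc, a cell cycle and complement response gene (1.13 and 1.69), and Dock5, a Rac exchange factor known from the osteoclast sealing zone (1.05 and 1.07). Emp2, a tetraspan membrane protein, had log2 ratios of 1.04 and 1.51, and Bbs9, a subunit of the ciliary BBSome, 1.43 and 0.97. All 12 were also higher when neutrophil-like, class II and stromal cells were left out. Cd207 and Rgcc, like Fgfr1 and Wwc1, passed the 20 CPM filter only through the high-score cells.

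**Figure D3:**
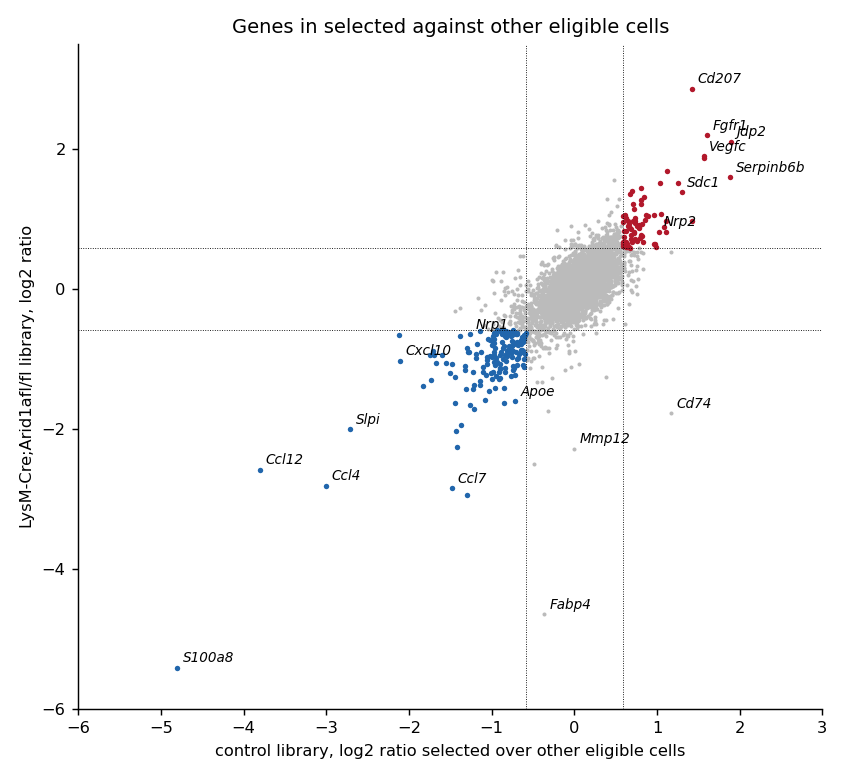
Log2 ratio of each gene between high-score and other eligible cells in the control library (x) and the mutant library (y); red and blue points passed 1.5-fold in the same direction in both libraries, and dotted lines mark that fold. Jdp2, Fgfr1, Vegfc and Cd207 lie at the upper right, and Cd74 is higher in the control and lower in the mutant; S100a9, Ngp and Camp lie outside the axes or were not seen in high-score control cells.

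In the VEGF family, Pgf was joined by a second ligand and by one of the neuropilins, while the other neuropilin went down. Vegfc, the lymphatic growth factor, stood at 45.5 against 15.4 CPM in the control and 16.0 against 4.29 in the mutant, log2 ratios of 1.56 (1.26 to 1.86) and 1.90 (1.43 to 2.35). It passed the 20 CPM filter only through the high-score control cells, where it was high. Nrp2, a neuropilin that binds Vegfc and Pgf, was at 809 against 399 in the control (1.02, 0.95 to 1.09) and 586 against 332 in the mutant (0.82, 0.75 to 0.89). Nrp1 was at 16.1 against 38.5 in the control (-1.26) and 24.6 against 38.4 in the mutant (-0.64). Thus 2 of the 3 tested genes of the list were higher, beside the 1.53% of all genes, and 1 was lower, beside the 3.29%; with totals that excluded mitochondrial genes and those of ribosomal proteins, 2 of 4 were higher and 0 lower, and with cells chosen on the thinned score 1 of 2 was higher and 1 lower. The 6 listed genes below the expression filter included Flt1, the VEGFR1 receptor, with 0 UMIs in high-score control cells and 2 in mutant ones, and Vegfa, with 12 and 6. Vegfd and Flt4 had no UMI in high-score cells of either library.

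Basement membrane genes other than the 2 collagen chains of the score were scarce. Of 22 genes on the list 11 had a UMI in high-score cells and 1, Col18a1, passed the filter. Col18a1, which encodes the collagen that releases endostatin, was at 128 against 83.5 CPM in the control (0.62) and 289 against 185 in the mutant (0.64), and it missed the 1.5-fold limit in both libraries together with TMM or median of ratios factors. Col4a5 had 32 and 27 UMIs in the high-score cells, Lamc1 40 and 31, and Agrn 20 and 20. Nid1, Hspg2 and Lama1 to Lama5 other than Lama3 had 0. None of 9 tested collagen folding and modification genes passed 1.5-fold, with medians of -0.02 and -0.03. Nor did any of 9 matrix-binding integrins and receptors, with medians of 0.18 and 0.35; Itgav, the alpha chain of the vitronectin receptor, was at 118 against 83.3 in the control (0.50) and 252 against 136 in the mutant (0.89).

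Of the osteoclast genes outside the selection, 1 of 10 tested passed 1.5-fold in both libraries, beside 1.53% of all genes. Their medians were 0.48 in the control and 0.25 in the mutant, against 0.07 over all genes, and 7 of the 10 had ratios above 0 in both libraries. The gene that passed was Jdp2. Acp5, the acid phosphatase TRAP, was at 34.0 against 20.1 in the control (0.76) and 86.3 against 59.8 in the mutant (0.53). Nfatc1, the main transcription factor of osteoclast formation, was at 39.4 against 22.1 (0.83) and 36.0 against 25.2 (0.51), and Tnfrsf11a, the RANK receptor, at 83.8 against 59.3 (0.50) and 131 against 82.8 (0.66). Of the 5 listed genes below the filter, Calcr and Oscar had 0 UMIs in the high-score cells. Atp6v0d2, a proton pump subunit that takes part in fusion, was at 16.1 against 13.0 CPM in the control and at 2.29 against 18.6 in the mutant. Car2, carbonic anhydrase, was at 2.68 against 0.70 and 1.71 against 0.39, and the fusion gene Ocstamp had 16 UMIs in high-score control cells (6.12 against 0.89 CPM) and 34 in mutant ones (9.71 against 1.40). Traces of the selection genes remained: Ctsk, Mmp9 and Dcstamp summed to 21.8 (16.5 to 28.2) CPM in high-score control cells and 16.1 (14.6 to 17.7) in the others, and to 9.13 (6.25 to 12.9) and 8.78 (7.81 to 9.84) in the mutant. Their part in the other values was not tested.

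Inflammatory genes were lower, with 7 of the 9 tested past 1.5-fold in both libraries beside 3.29% of all genes, and medians of -1.18 in the control and -0.90 in the mutant. Ccl4, a chemokine for monocytes and T cells, was at 9.56 against 76.9 CPM in the control (-3.01, -3.64 to -2.44) and 28.3 against 198 in the mutant (-2.81, -3.11 to -2.52). Ccl7, another monocyte chemokine, was at 143 against 401 (-1.48) and 20 against 144 (-2.85). Ccl2 was at 479 against 1089 (-1.18) and 477 against 950 (-0.99). Cxcl2, Ccl3, Acod1 and Cd14 were also lower, while Nfkbia, an inhibitor of NF-kB, was higher at 560 against 392 (0.51) and 673 against 462 (0.54) without passing 1.5-fold. Ccl12, which is outside the list and resembles Ccl2 and Ccl7, was at 4.21 against 58.8 in the control and 3.71 against 22.3 in the mutant. It passed the 20 CPM filter only through the other eligible cells. With cells chosen on the thinned score, 5 of the 9 passed.

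The remaining lowest genes by the naming rule included Slpi, a secreted protease inhibitor, at 9.18 against 60.1 in the control (-2.71) and 10.6 against 42.5 in the mutant (-2.01). The others were the neutrophil granule genes S100a9, S100a8, Ngp and Camp, whose levels outside the high-score cells came from few cells. All of these, Slpi included, passed the 20 CPM filter only through the other eligible cells. There were 5 neutrophil-like cells among the eligible control cells and 16 among the mutant ones, and none was a high-score cell. S100a8 stood at 181 CPM in the other eligible control cells, against 6.503 in the high-score cells. When neutrophil-like, class II and stromal cells were left out together and the cells chosen anew, which removed 9 eligible control and 33 mutant cells, the levels were 18.4 and 6.46. In the mutant, S100a8 went from 621 to 34.8 in the others and from 14.6 to 14.8 in the high-score cells. Ngp had 0 UMIs in high-score control cells and 7 in mutant ones, and without all 3 kinds of cells it had 3 and 64 UMIs in the others. The counts over all genes were then 74 higher and 161 lower in both libraries.

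Macrophage markers were present but lower. All 12 listed macrophage markers were detected in high-score cells of both libraries, and their summed level was 8800 against 17969 CPM in the control and 5203 against 10033 in the mutant. Lyz2, lysozyme and the gene whose promoter drives the Cre, stood at 6946 against 14895 in the control and 2805 against 6384 in the mutant. Most of each sum was thus Lyz2, and the drop was not even over the markers. Dab2 was lower in the control (134 against 217) but level in the mutant (239 in both groups). The complement gene C1qa was at 136 against 315 and 38.6 against 127, and C1qb and C1qc followed it. Csf1r, the M-CSF receptor, hardly moved, at 262 against 289 and 394 against 419. Stromal markers summed to 2 UMIs in high-score control cells and 0 in mutant ones, and Col1a1, Col1a2, Col3a1 and Sparc were at 0 in both. No trophoblast or mast cell marker had a UMI in a high-score cell of either library. Endothelial markers summed to 14.9 against 21.1 and 7.43 against 10.6 CPM, with Cdh5, Tek, Emcn and Cldn5 at 0. Epithelial, neuronal and lymphoid markers had 1 gene each detected in each library, at 4.86 CPM or less. Neutrophil markers summed to 7.27 against 462 CPM in the control and 22.3 against 1506 in the mutant, and monocyte markers to 26.0 against 50.4 and 167 against 272. Dendritic markers were higher in the high-score cells of the control (106 against 44.3) and lower in those of the mutant (41.4 against 202), and their part in the other values was not tested. Much of this came from few cells. Without neutrophil-like, class II and stromal cells, Cd74 went from 166 to 72 UMIs in high-score control cells, of which 1 was left out. In the other mutant cells it went from 3390 to 1482 UMIs. On the megakaryocyte and erythroid list almost all UMIs were of Pf4, a chemokine that macrophages also make. Ptprc, the leukocyte antigen CD45, had a UMI in 83.3% of the high-score control cells and 93.7% of the mutant ones. By their markers these cells were thus myeloid in both libraries.

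On the remaining lists few tested genes passed 1.5-fold in both libraries, and the share of all genes counted lower was 3.29%. On the NRF2 and metallothionein list 3 of 11 were lower, with medians of -0.33 in the control and 0.05 in the mutant. Prdx1, a peroxidase of the NRF2 response, was at 2461 against 5280 CPM in the control (-1.10) and 2367 against 5138 in the mutant (-1.12), and Hmox1 (-1.08 and -1.58) and Gclm (-0.96 and -0.85) were lower with it, whereas 5 of the 11, Mt1 and Mt2 among them, had ratios above 0 in both libraries. Of 15 lipid-handling genes 2 were lower and 1 higher. Cd36, a fatty acid receptor, was at 187 against 365 (-0.97) and 234 against 449 (-0.94) and Apoe at 90.3 against 148 (-0.71) and 438 against 1331 (-1.60). The cholesterol exporter Abcg1 was the higher one, at 40.2 against 20.2 (0.99) and 22.3 against 14.8 (0.59), though not with TMM or median of ratios factors. Id2 and Id3, targets of BMP and TGF-beta signalling, were lower (Id2, -0.96 and -1.42; Id3, -0.90 and -0.94) out of 8 tested, of which 0 passed on the thinned score. Atf3 was the 1 lower gene of 6 tested on the ATF4 and CHOP stress response list (-1.67 and -1.06). Of 20 interferon-stimulated genes Cxcl10 (-2.11 and -1.03), Rsad2 (-1.70 and -0.95) and Ifit3 (-0.74 and -0.76) were lower, with list medians of 0.01 and -0.20; none of the 20 passed on the thinned score. Mmp8 was the 1 lower gene of 9 matrix-degrading enzymes and inhibitors (-0.94 and -1.05). No gene passed in both libraries among 13 hypoxia-induced, 15 endoplasmic reticulum chaperone, 12 cycling and 2 alternative activation genes tested, and abundant genes of these lists (Ldha, Calr, Stmn1 and Il1rn) had log2 ratios of 0.03, -0.15, 0.19 and 0.47 in the control and 0.17, 0.06, 0.76 and -0.43 in the mutant. The cycling list had medians of 0.16 and 0.48, and 8 of its 12 tested genes had ratios above 0 in both libraries. In the mutant Ccnb2 (0.84), Ube2c (0.72) and Mcm6 (0.59) were past 1.5-fold as well. The selection limited only Mki67, Top2a, Aurka and Cdk1, which summed to 47.0 CPM in the high-score and 41.0 in the other control cells and to 47.4 and 38.5 in the mutant, and the part of cycling cells in the other values was not tested.

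Some of these genes changed step by step with the score among all eligible cells, and others did not. Cells below the threshold with a score above 0 were divided at their median. Jdp2 went from 37.0 CPM in control cells with a score of 0 to 55.9, 102.8 and 221 in the low, high and selected bins, and from 17.6 to 23.9, 71.5 and 165 in the mutant. Lyz2 went from 16070 to 15229, 12465 and 6946 in the control and from 7771 to 6614, 4984 and 2805 in the mutant. Ccl4 went from 101.1 to 66.7, 46.6 and 9.56 and from 308 to 195, 111 and 28.3. In these 3 genes, chosen after their values were seen, every step went the same way in both libraries. Slpi did not follow the score in the control, at 63.3, 79.6, 32.1 and 9.18, nor did Id3, at 138, 148, 139 and 75.7, or Cxcl10, at 141, 106, 151 and 31.0. The median depth of the bins lay between 16540 and 21198 UMIs and neither rose nor fell steadily along the score.

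**Figure D4:**
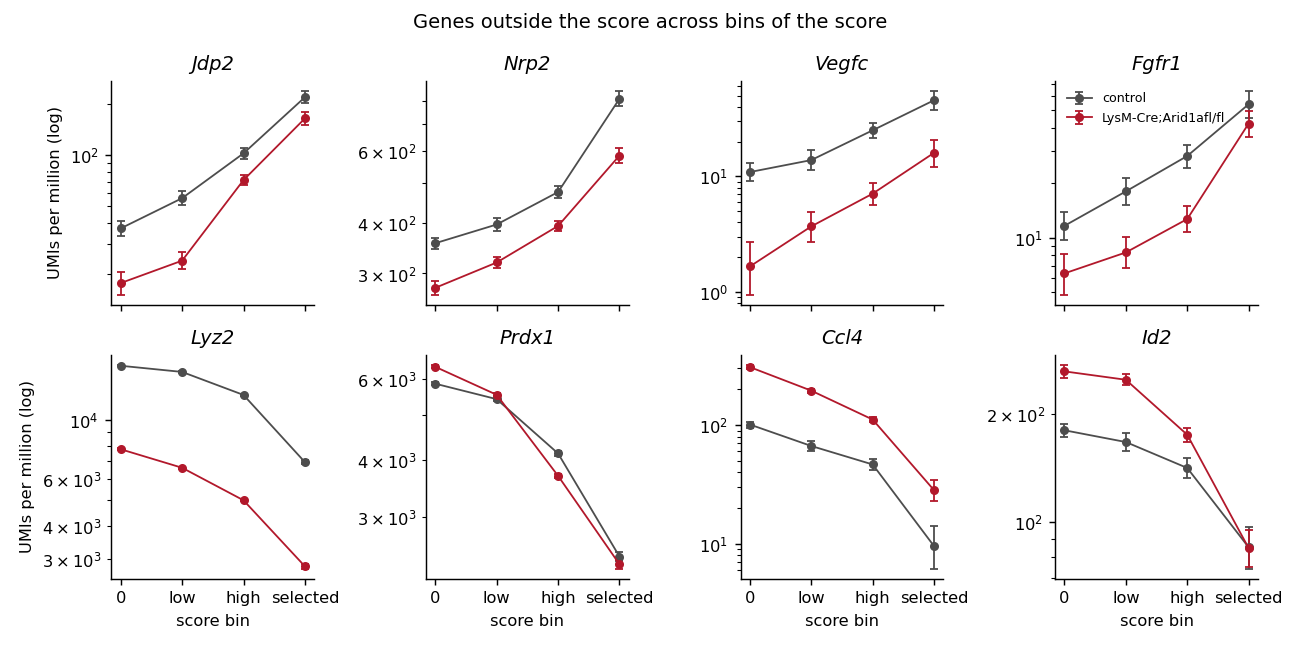
Level of 8 genes outside the score, in CPM on log axes, in cells with a score of 0, with a low or high score below the threshold, and in the selected cells; bars are exact Poisson 95% intervals. Jdp2, Nrp2, Vegfc and Fgfr1 are highest and Lyz2, Prdx1, Ccl4 and Id2 lowest in the selected cells of both libraries.

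Cells led by Pgf or Nptx1 and cells led by Cxcl14 differed from each other well beyond the score genes. Of 4971 genes, 163 were over 1.5-fold higher in the Pgf- or Nptx1-led cells in both libraries (3.28%) and 181 were lower (3.64%). Jdp2 was at 294 CPM in the Pgf- or Nptx1-led control cells and 42.5 in the Cxcl14-led ones, and at 241 and 59.9 in the mutant. Vegfc was at 58.5 against 14.9 and 24.2 against 3.21, the Cxcl14-led values resting on 7 and 3 UMIs. Ptges, a prostaglandin E synthase, was at 38.4 against 4.25 and 40.3 against 2.14, and P2ry14, a receptor for UDP-glucose, at 23.96 against 2.13 and 50.9 against 7.48, in each case on 1 to 7 UMIs in the Cxcl14-led cells. The log2 ratios were 3.18 (1.27 to 6.25) and 4.24 (2.34 to 7.31) for Ptges, 3.49 (0.94 to 8.83) and 2.77 (1.67 to 4.12) for P2ry14, and 1.97 (0.88 to 3.32) and 2.91 (1.28 to 5.24) for Vegfc. These genes went with Pgf and Nptx1 and not with Cxcl14.

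Several macrophage genes went the other way. C1qa was at 30.6 CPM in the Pgf- or Nptx1-led control cells and at 555 in the Cxcl14-led ones, against 349 in cells with a score of 0. In the mutant it was at 19.6 and 97.3, against 164. The macrophage elastase Mmp12 was at 2.79 (5 UMIs) against 1104 in the control and 62.0 against 307 in the mutant. Cx3cr1, the fractalkine receptor, was at 2.23 (4 UMIs) against 53.2 and 73.5 against 291. Id1 and Smad7, both induced by BMP and TGF-beta signals, were at 5.57 against 68.1 and 5.57 against 19.1 in the control, and at 23.7 against 138 and 13.1 against 44.9 in the mutant. Smad7 was over 20 CPM only in the Cxcl14-led mutant cells. When cells were chosen by Cxcl14 alone, 7 genes were higher and 13 lower in both libraries, and Jdp2 fell below the rest (-0.57 as the smaller log2 ratio). With Pgf and Nptx1 alone the counts were 135 and 232, from 138 and 189 cells as before, of which 90 and 114 were high-score cells. Both choices were made after these values were seen.

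**Figure D5:**
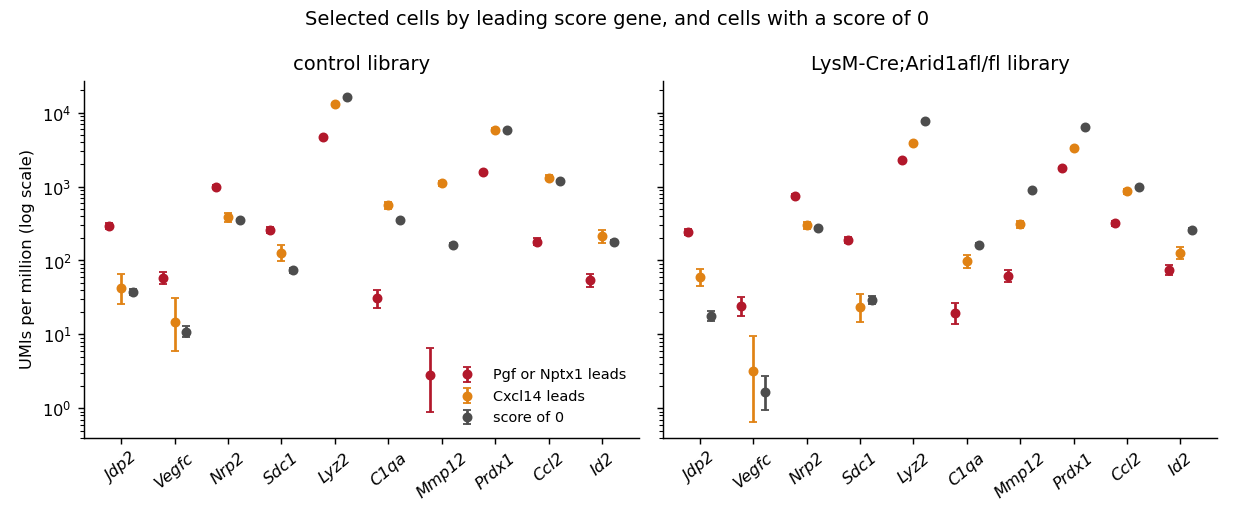
Level of 10 genes, in CPM on a log axis, in high-score cells led by Pgf or Nptx1, in those led by Cxcl14 and in eligible cells with a score of 0; bars are exact Poisson 95% intervals. The Cxcl14-led cells lie nearer to the cells with a score of 0 than to the Pgf- or Nptx1-led cells for Jdp2, Lyz2, C1qa and Prdx1 in the control library, whereas in the mutant library Jdp2 and Prdx1 lie between the other groups.

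Between genotypes, the 6 genes were higher in the mutant library in all eligible cells, at 281 CPM against 98.6 in the control library, which is 1.51 (1.45 to 1.57) on the log2 scale. The collagen genes differed most, with 0.99 and 10.5 CPM for Col4a1 (3.41, 2.86 to 4.02) and 1.80 and 17.98 for Col4a2 (3.32, 2.91 to 3.76). Dmkn (1.78), Cxcl14 (1.71) and Nptx1 (1.52) followed, and Pgf differed least, at 30.5 and 46.7 (0.62, 0.50 to 0.74). Among osteoclast-gene cells the collagen genes were again highest (3.11 and 3.13) and Pgf lowest (0.73), so the higher collagen IV level in the mutant library was seen outside the high-score cells too. By the control threshold, 32.9% (30.8 to 35.1) of eligible mutant cells would have been selected, 23.0 percentage points more than the 9.94% of control cells that the selection itself fixed. At 5000 UMIs per cell, cells with 2 or more score UMIs made up 30.7% of the mutant and 11.7% of the control cells. With 1 library each, a difference between genotypes and one between libraries cannot be told apart. Arid1a itself had 120 UMIs (45.9 CPM) in high-score control cells and 67 (19.1) in mutant ones, with 41.3 and 16.9 CPM in the others. Where these 3′ reads lie relative to the floxed exons was not examined, so they do not check the deletion.

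Within the high-score cells 655 of the 4958 genes were over 1.5-fold higher in the mutant library (13.2%) and 203 lower (4.09%). Of these, 444 and 121 passed the same limit in the same direction in the other eligible cells. The balance again moved with the scaling, from 76.3% higher on plain totals to 65.1% with TMM factors, 61.9% with median of ratios factors and 67.3% with totals that excluded mitochondrial genes and those of ribosomal proteins. The highest named genes included several that interferons are known to induce. Ly6a, the surface protein Sca-1, stood at 97.2 CPM in control and 1919 in mutant high-score cells, a log2 ratio of 4.30 (4.12 to 4.49), and the log2 ratio was 4.26 in the other eligible cells. AW112010, an immune transcript, was at 3.44 and 158, Ly6i at 2.30 and 68.6, H2-Q7, a non-classical MHC class I gene, at 3.83 and 69.7, and the HIN-200 genes Ifi206 and Ifi213 at 2.68 and 30.9 and at 3.06 and 33.7, each on 6 to 10 UMIs in the control. All but AW112010 have close paralogs between which reads can be shared. Apart from Ly6a, these genes passed the 20 CPM filter only through the mutant library, where they were high.

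At the low end was Fxyd2, which encodes a small regulator of ion transport, at 39.8 CPM in control and 1.43 (5 UMIs) in mutant high-score cells. Emp2 was at 133 and 11.4, Dennd5b, a Rab regulator, at 45.9 and 7.43, Fabp4, a fatty acid carrier, at 19.1 and 1.71 (6 UMIs), and Ccl7 at 143 and 20. Fxyd2, Emp2 and Dennd5b passed the 20 CPM filter only through the control library. In the other eligible cells they showed the same direction, with log2 ratios of -3.75, -4.01 and -2.70. Fabp4 did not, being higher in the mutant in the other cells (0.80), and its difference between high-score and other cells was -4.28 (-5.51 to -3.05). Fabp4 passed the 20 CPM filter only through the other eligible cells.

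The genotype difference was compared between high-score and other cells for 4956 genes. The ratio was at least 1.5-fold greater in the high-score cells for 86 of them, with the counting interval off 0. It was at least 1.5-fold smaller for 65, again with the interval off 0. How many genes counting error alone would give was not tested. After Fabp4 the most negative were Cd74, Mmp12, Ccl5 and Ccl6. Mmp12 was at 204 CPM in both high-score and other control cells but at 141 and 690 in the mutant, a difference of -2.28 (-2.46 to -2.10). Ccl5, a T cell chemokine, was at 43.6 and 60.95 in the control and 73.1 and 415 in the mutant (-2.02, -2.35 to -1.70), and Ccl6 at 47.8 and 117 and at 13.7 and 105 (-1.65, -2.13 to -1.16). Of the 532 Mmp12 UMIs in the high-score control cells, 519 were in the 26 Cxcl14-led cells, so that Mmp12 was lower in the mutant over all high-score cells but higher in those led by Pgf or Nptx1 (2.79 and 62.0). Ccl5 was higher in the mutant in both groups of cells, and Ccl6 was lower in the mutant high-score cells and differed little in the others. On the positive side, beside Cd207, were AW112010 (1.46, 0.50 to 2.42), Ccl12 (1.22, 0.05 to 2.38) and the unnamed transcript Gm26532 (1.20, 0.65 to 1.74); S100a9 (1.48) rested on 1 UMI in high-score control cells and its interval, -1.46 to 4.42, included 0.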

How the data were processed

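The deposited matrices hold raw UMI counts per gene and barcode from 10x 3′ libraries. The matrix header names Cell Ranger 6.1.0, and the sample record names GRCm39. There was 1 library per genotype, with 6455 barcodes and 164004706 UMIs in the control and 5865 and 131800059 in the mutant. No cell annotation and no doublet removal were given in the sources used here. The members, gene lists and tests were chosen with earlier results of these data known. UMIs were summed over cells. Levels of the 6 score genes are CPM of all UMIs, and those of other genes are CPM of the UMIs outside the 6 genes. Genes were compared where their mean reached 20 CPM over the 4 sums (high-score and other cells of each library). A gene could thus pass through only the group where it was high, so its rank is not independent of the filter. A call was a ratio past 1.5-fold, in both libraries where high-score and other cells were compared. Counts of 0 were set to a floor of 3 UMIs when genotypes were ranked. Intervals are exact Poisson or conditional binomial for levels and ratios, Clopper-Pearson for shares, and normal on the log scale for differences of ratios. They cover counting error only, not the spread between cultures. No p-value was computed, since cells are not replicates.

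Named genes were the 6 score genes; the 12 highest and 8 lowest by the smaller log2 ratio of the libraries; the 6 highest and 6 lowest between genotypes in high-score cells; the 5 highest and 5 lowest differences of that ratio; and listed genes that passed, or otherwise the 2 most abundant of a list. One gene that this rule names is not reported here. Genes in the comparison of leading genes were picked after their values were seen. Listed symbols that occur more than once were resolved by their identifier in GENCODE M39. Possible doublets were scored against simulated pairs (2 per barcode, 50 neighbours, 0.8% per 1000 barcodes), which marked 333 and 275 barcodes, of which 0 and 3 were high-score cells; they were kept, and left out as an alternative. Barcodes shared by the libraries numbered 8, 1 of them a high-score cell of the mutant. Code was tested on simulated counts. Python 3 with NumPy and SciPy was used, and edgeR and DESeq2 only for scaling factors (TMM and median of ratios).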

Additional observations from a re-analysis of the deposited data

Results flagged for a closer look

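Cd74, the invariant chain of MHC class II, moved in opposite directions in the libraries. It stood at 63.5 CPM in high-score and 28.1 in other eligible control cells, a log2 ratio of 1.17, and at 29.4 and 100.9 in the mutant, a log2 ratio of -1.78. The difference between libraries was not tested against replicates, of which there were none. Without cells that held at least 0.5% of their UMIs in class II genes, and without neutrophil-like and stromal cells, 1 high-score control cell left the selection and the log2 ratios were 0.77 and -0.57.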

How the results depend on the processing

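No paired analysis was possible because each genotype had 1 library and no replicate numbers. On the thinned score the log2 ratios of the 6 genes in the UMIs not used for the choice were 2.10 (control) and 2.29 (mutant), the counts of genes higher and lower in high-score cells were 46 and 90, and the excess of mutant cells over the common threshold was 19.05 points. With the top 5% the control ratio was 2.93 and 306 genes were lower in mutant high-score cells. With the top 20% the control ratio was 2.55 and the counts were 39 and 79, and with the control threshold in both libraries 103 genes were lower. With totals that excluded mitochondrial genes and those of ribosomal proteins, 124 genes were higher in high-score cells, 335 were lower in mutant ones, and the genotype ratio of the 6 genes was 1.43; it was 1.42 with TMM, where 48 genes were higher, and 1.41 with median of ratios, where 326 were lower in the mutant. A minimum of 5 CPM gave 194 and 310 genes and 1378 and 527 between genotypes, 1 UMI in each sum 550 and 527 and 2208 and 1305, a ratio limit of 5 to 4 gave 397 and 373 and 1314 and 751, and a fold of 2 11 and 39 and 265 and 58. Chosen after seeing the data, Pgf and Nptx1 alone gave 135 higher genes, and Cxcl14 alone gave 7 and 13.

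Signs turned in few cases. The median of the VEGF genes that passed the filter in each setting, 3 as reported and 2 on the thinned score, was in the control -0.087 on the thinned score, -0.052 with the top 20%, -0.12 with the common threshold and -0.19 with Cxcl14 alone, and the mutant median was -0.24 with a minimum of 5 CPM and also with 1 UMI in each sum, since more genes of the list then entered. Without neutrophil-like, class II and stromal cells, an alternative also chosen after seeing the data, Ngp and Camp turned to 0.080 and 0.49 in the mutant, on 7 UMIs each in high-score cells. With Cxcl14 alone, Jdp2 (-0.57), Fgfr1 (-0.32), Serpinb6b (-0.44), Wwc1 (-0.78), Vegfc (-0.19), Sdc1 (-0.15), Emp2 (-0.57), Bbs9 (-0.70), Ccl12 (0.18) and Fabp4 between genotypes (0.74) turned. Other causes were not tested. Leaving out doublet-scored barcodes or stromal cells, and equal weight per cell, moved none of these counts by over 1.5 times. Depth limits Col4a1 and Col4a2 in the control, at 28 and 51 UMIs in 1389 cells, and no library was replicated.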
